A study of Mus musculus with 6 samples.

Results

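Respiratory complexes II, III, IV and V and the mobile carrier cytochrome c were described at the level of their nuclear-encoded subunit transcripts in inguinal white adipose tissue. The 38 genes were taken by name: 4 subunits of complex II, 9 of complex III, cytochrome c itself, 11 of complex IV and 13 of complex V. All 38 were in the deposited count table of 16627 genes and all 38 passed the filter on low counts, which left 16366 genes tested. Celf1 had been deleted in adipocytes in 3 of the libraries (Celf1 AKO), and the other 3 came from fl/fl littermates (Flox control). Both groups had spent 6 hours at 4 °C, so no warm baseline enters any comparison. Neither the Cre driver, the sex nor the age is in the labels. They also do not state whether each library is 1 mouse, so a p-value here measures library-to-library spread, which may be technical. In bulk fat, fewer cells of a type and less RNA per cell cannot be told apart. CELF1 is a protein that binds RNA and is known for its roles in splicing and mRNA decay, and the study asked what it does in the beiging of this depot. Coordinates are GRCm38 gene bounds from GENCODE M21.

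The respiratory chain passes electrons from nutrients to oxygen across the inner mitochondrial membrane. Complex II takes them from succinate, complex III hands them to cytochrome c, and complex IV gives them to oxygen, while complexes III and IV pump protons. Complex V, the ATP synthase, lets the protons return to make ATP, and in heat-producing fat the uncoupling protein Ucp1 offers them a second way back. Complex II is encoded by nuclear genes alone, whereas complexes III, IV and V also hold subunits made from mitochondrial DNA.

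The promoters and the site below are examples. Cycs had the largest difference of the members, and Sdhd the largest in complex II. Atp5g3 and Atp5g1 had fold changes near 0. Those of Cox8a and Atp5g2, whose promoters are not shown, were nearer 0 than that of Atp5g3. The promoters are the 250 bases before the start site in RefSeq's table for GRCm38, on the gene's own strand (Cycs, chr6:50566570-50566819, minus strand; Sdhd, chr9:50603850-50604099, minus strand; Atp5g3, chr2:73911327-73911576, minus strand). Capitals mark matches, on either strand, to TGACGTCA, the cAMP response element bound by CREB (Cycs), to the palindromic site of nuclear respiratory factor 1, and to CCGGAAG, an ETS site of the kind GABPA binds (both in Sdhd), and to TNAAGGTCA, the site of the estrogen-related receptors (Atp5g3).
Cycs: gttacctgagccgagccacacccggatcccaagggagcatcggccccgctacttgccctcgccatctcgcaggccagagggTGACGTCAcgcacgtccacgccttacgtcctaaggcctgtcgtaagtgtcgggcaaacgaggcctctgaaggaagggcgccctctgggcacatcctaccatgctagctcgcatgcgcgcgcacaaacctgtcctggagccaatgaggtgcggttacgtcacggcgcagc
Sdhd: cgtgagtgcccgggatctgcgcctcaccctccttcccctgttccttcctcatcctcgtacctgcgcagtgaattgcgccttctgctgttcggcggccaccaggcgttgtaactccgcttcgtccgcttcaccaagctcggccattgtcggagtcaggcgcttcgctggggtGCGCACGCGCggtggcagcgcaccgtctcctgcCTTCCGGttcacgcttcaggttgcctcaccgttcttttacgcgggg
Atp5g3: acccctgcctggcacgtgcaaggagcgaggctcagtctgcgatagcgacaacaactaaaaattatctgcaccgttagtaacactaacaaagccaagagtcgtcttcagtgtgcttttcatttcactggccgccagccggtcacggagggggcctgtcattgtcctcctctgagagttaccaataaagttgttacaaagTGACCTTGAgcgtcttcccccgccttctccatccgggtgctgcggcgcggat
The site of Atp5g1, in its 3′ UTR (chr11:96069700-96069729, minus strand, GRCm38), carries in capitals a match of 11 bases to a repeat of alternating G and T, of the GU-rich type that CELF1 binds in RNA, and the repeat goes on past the capitals.
Atp5g1: ttttgtattGTGTGTGTGTGtgaggtcaga

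RefSeq's table held a promoter for 30 of the 38 members and none for 8. Motifs were counted at each gene's first listed start site, in the 250 bases before and 50 bases after it, on both strands. The nuclear respiratory factor 1 motif was found in 9 of the 30 members (30%), against 4.78% of 27025 promoters. The ETS motif CCGGAAG was found in 10 (33.3%, against 9.12%), the estrogen-related receptor motif TNAAGGTCA in 2 (6.67%, against 1.26%), the YY1 motif AAGATGGC in 1 (3.33%, against 2.88%) and the CCAAT box in 16 (53.3%, against 37.9%). The cAMP response element TGACGTCA, which was searched for only after the Cycs promoter had been read, lay in 2 (6.67%, against 1.88%), Cycs and the Rieske protein gene Uqcrfs1. Over all listed start sites, 10 members held the nuclear respiratory factor 1 motif, 11 the ETS motif and 2 the YY1 motif. None of the 33 matches over all these start sites to the first 4 motifs and the cAMP response element overlapped a match to another of them. The members with the estrogen-related receptor motif were Atp5g3 and Sdhd. In Sdhd it began at base 37 from the start site, outside the bases printed. A match is a string of letters and was not tested as a site.

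CELF1 is known in mouse and human cells to bind GU-rich elements in 3′ UTRs and to speed decay of the mRNAs that carry them. Neither of the motifs searched was frequent here: the GU-rich element of 11 bases lay in the 3′ UTR of 0 of 38 members, against 3.77% of 13852 genes with a 3′ UTR, and the repeat of alternating G and T, also searched as 11 bases, in 1 (2.63%, against 7.14%), the Atp5g1 site already shown. The members' 3′ UTRs were short, with a median of 195 bases against 1013 bases over all those genes. Per kilobase of 3′ UTR, the members held 0 matches of the element and 0.102 of the repeat, against 0.0493 and 0.453 over all genes.

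The 6 libraries held 54835348 to 64979443 counts, and 1 CPM (a count per 1000000 after TMM scaling of the library sizes) stood for 54.9 to 67.8 counts. Celf1 itself (ENSMUSG00000005506, chr2:90940382-91019497, plus strand) was at 52.5, 49.8 and 62.99 CPM in Celf1 AKO, against 126, 114 and 144 CPM in Flox control, with no overlap, a log2 fold change of -1.21 (SE 0.14) and an edgeR quasi-likelihood adjusted p of 0.122, in tissue that also holds cells in which it was not deleted. White adipocyte markers were present in every library, at 23389 to 28885 CPM summed over 6 genes in Celf1 AKO, against 27020 to 30147 CPM in Flox control. The 6 beige fat markers were all lower in Celf1 AKO, with sums of 112 to 247 CPM, against 791 to 890.4 CPM in Flox control. Of these, 5 did not overlap, where 9.51% of all genes were lower without overlap. In the test of all genes, 2 passed an adjusted p of 0.05 and are said to be called, both higher, which is 0.0122% of those tested.

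All 38 members had a negative log2 fold change in Celf1 AKO over Flox control, as did 52.5% of all genes tested, but none passed the test, and the direction depended in large part on 2 libraries. The median over the members was -0.25 (-0.02 over all genes), and by complex it was -0.28 for complex II, -0.30 for complex III, -0.66 for cytochrome c, -0.19 for complex IV and -0.24 for complex V. By edgeR's quasi-likelihood test 0 of 38 passed after adjustment over all genes. At an unadjusted p under 0.05, 8 were lower and 0 higher, where 6.17% of all genes were lower and 6.75% higher: Sdhd, Uqcrfs1, Cyc1, Cycs, Cox5a, Cox7b, Atp5o and Atp5h. In 14 members every Celf1 AKO library lay below every Flox control library, against 9.51% of all genes, and in 0 members above (7.81% of all genes). These 14 were Sdhb and Sdhd of complex II, Uqcrc2, Uqcrfs1, Uqcrb, Uqcrh and Cyc1 of complex III, Cycs, Cox5a and Cox7b of complex IV, and Atp5a1, Atp5b, Atp5o and Atp5h of complex V.

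Flox control replicate 1 was the highest of the 6 libraries for 38 of 38 members, though for only 15.3% of all genes, and Celf1 AKO replicate 3 was the lowest for 32 of 38, against 17.2% of all genes. Over the mean of the other Flox control libraries, Flox control replicate 1 was higher by a median of 0.39 on the log2 scale (0.23 to 0.61). The mean log2 level of the members, set against the mean of the control libraries, was -0.19, -0.15 and -0.36 in Celf1 AKO replicates 1, 2 and 3, and 0.26, -0.11 and -0.15 in Flox control replicates 1, 2 and 3. Without Flox control replicate 1 the fold change was negative for 28 of 38 members with a median of -0.09, and without Celf1 AKO replicate 3 it was negative for 35 of 38 with a median of -0.17. Without both, a setting chosen after seeing the data, it was negative for 19 of 38 with a median of -0.0043. Leaving out the highest control, or the lowest Celf1 AKO library, raises a fold change by construction, so these shifts are no independent check. In genes where Celf1 AKO replicate 3 is the highest of its group, leaving it out has the reverse effect. The values without both libraries given below carry this limit.

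The same libraries had the extreme scaling factors: TMM gave Flox control replicate 1 the lowest (0.935) and Celf1 AKO replicate 3 the highest (1.05). Scaled by library size alone, Flox control replicate 1 was still the highest for 36 of 38 members (7.01% of all genes), Celf1 AKO replicate 3 the lowest for 22 (11.3%), and 21 members did not overlap between the groups (7.25% of all genes). Celf1 AKO replicate 3 also held the most neutrophil marker RNA (5 of 6 listed genes analysed, all 5 higher). They summed to 15.6, 24.95 and 108 CPM in Celf1 AKO, against 7.41, 15.4 and 3.198 CPM in Flox control, with Ngp at 0 in 2 of the controls. Its erythrocyte markers (5 of 5 higher) summed to 1122 CPM, beside 525 and 498 CPM in the other Celf1 AKO libraries and 517, 376 and 309 CPM in Flox control. Acta1, the only skeletal muscle marker analysed here of 7 listed, was at 1039 CPM there and at 23.1 to 75.2 CPM in the other 5 libraries. Endothelial markers (6 of 6 higher, 912 to 1098 CPM in Celf1 AKO and 484 to 746 CPM in Flox control) and Schwann cell markers (6 of 6 higher, 544 to 787 CPM in Celf1 AKO and 341 to 421 CPM in Flox control) were higher in all 3 Celf1 AKO libraries. The part of any of these in the members' values was not tested.

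The marker genes of smallest p, with their log2 fold changes, were Ucp1 (-3.69) and Dio2 (-2.67) for beige fat, Lep (-1.71) and Adipoq (0.12) for white adipocytes, Pdgfra (-0.33) and Dpp4 (-0.21) for preadipocytes and Lyz2 (-0.30) and Adgre1 (0.08) for macrophages. They were Prx (1.32) for Schwann cells, Kdr (0.67) and Cldn5 (1.48) for endothelium, Csf3r (1.42) and Ngp, for which no fold is given as it was at 0 in 2 controls, for neutrophils, Slc4a1 (1.25) and Hba-a2 (0.83) for erythrocytes and Cdh1 (1.22) and Krt19 (1.47) for mammary epithelium. The median log2 fold change of the neutrophil list was 2.67, and 1.12 without Celf1 AKO replicate 3. The 3 mammary genes analysed of 5 listed summed to 11.96, 3.13 and 3.26 CPM in Celf1 AKO, against at most 3.25 CPM in each Flox control library, and their median log2 fold change was 1.47, or 0.30 without Celf1 AKO replicate 1. Immediate early genes, the first to answer a stimulus, had their smallest p-values in Atf3 (1.43) and Jun (1.92), with a median log2 fold change of 1.76 over the 5 genes, and summed to 882, 789 and 148 CPM in Celf1 AKO, against 195, 104 and 80.9 CPM in Flox control. Their part in the members' values was not tested either.

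**Figure D1:**
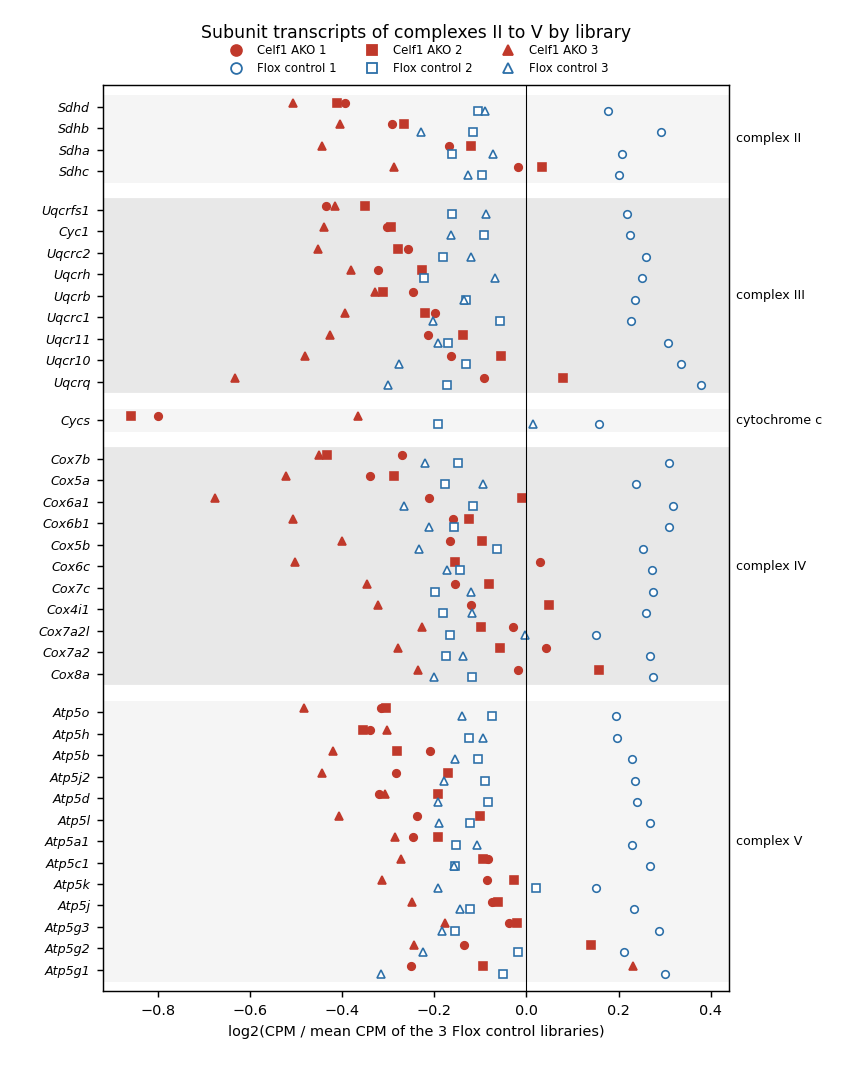
Level of each of the 38 members in each library, as log2 of its CPM over the mean CPM of the 3 Flox control libraries (x axis), one row per gene, by complex and ordered by fold change. Filled red symbols are Celf1 AKO, open blue symbols Flox control, and circles, squares and triangles are replicates 1, 2 and 3. Flox control replicate 1 is the rightmost point in all 38 rows, and Celf1 AKO replicate 3 the leftmost in 32.

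Complex II, or succinate dehydrogenase, joins the citric acid cycle to the respiratory chain. Sdhd, a membrane anchor that helps hold the heme and the ubiquinone site (ENSMUSG00000000171, chr9:50596357-50603812, minus strand; promoter shown among the sequences), was at 202, 199.6 and 187 CPM in Celf1 AKO, against 299.9, 247 and 249 CPM in Flox control. All 3 Celf1 AKO values lay below all 3 controls and were close together. Its log2 fold change was -0.44 (SE 0.12), with an edgeR adjusted p of 0.280, and -0.31 without the 2 libraries. Sdhb, the iron-sulfur subunit that carries electrons from the flavin to ubiquinone (ENSMUSG00000009863, chr4:140961203-140979193, plus strand), was at 185, 188 and 171 CPM in Celf1 AKO, against 277, 209 and 193 CPM in Flox control. The groups did not overlap, but the gap was narrow and the highest value was Flox control replicate 1. For Sdhb the log2 fold change was -0.32 (SE 0.16), with edgeR adjusted p 0.431, and the log2 fold change was -0.11 without both libraries.

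Sdha, the flavoprotein that oxidizes succinate (ENSMUSG00000021577, chr13:74322254-74350280, minus strand), was at 941, 973 and 777 CPM in Celf1 AKO, against 1222, 945 and 1006 CPM in Flox control. Celf1 AKO replicate 2 lay above 1 control, so the groups overlapped. For Sdha the log2 fold change was -0.24 (SE 0.16), with edgeR adjusted p 0.552. Sdhc, the other membrane anchor (ENSMUSG00000058076, chr1:171127165-171150603, minus strand), was at 198, 206 and 164 CPM in Celf1 AKO, against 231, 188 and 184 CPM in Flox control. Here 2 of the Celf1 AKO libraries lay above 2 of the controls; the log2 fold change was -0.08 (SE 0.14, edgeR adjusted p 0.839) and turned to 0.03 without Flox control replicate 1. The anchors Sdhc and Sdhd, which sit side by side in the membrane, thus had unequal values in the same libraries; the difference between the 2 genes was not tested.

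Complex III takes electrons from ubiquinol and passes them to cytochrome c. Both of its catalytic subunits made from nuclear genes were among the 14 members without overlap. Uqcrfs1, the Rieske iron-sulfur protein (ENSMUSG00000038462, chr13:30540308-30545362, minus strand), was at 268, 285 and 272 CPM in Celf1 AKO, against 423, 325 and 342 CPM in Flox control. The Celf1 AKO libraries lay close together and below every control (log2 fold change -0.40, SE 0.14, edgeR adjusted p 0.314), and the log2 fold change was -0.27 without both libraries. Cyc1, cytochrome c1, the heme protein that reduces cytochrome c (ENSMUSG00000022551, chr15:76343523-76346260, plus strand), was at 233, 234 and 212 CPM in Celf1 AKO, against 335, 269 and 256 CPM in Flox control. It too did not overlap. For Cyc1 the log2 fold change was -0.34 (SE 0.14), with edgeR adjusted p 0.360, and the log2 fold change was -0.17 without both.

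Uqcrb, a small subunit near the ubiquinone site (ENSMUSG00000021520, chr13:66900617-66905378, minus strand), was at 148, 142 and 139.8 CPM in Celf1 AKO, against 207, 160.4 and 159.8 CPM in Flox control. The groups were separate (log2 fold change -0.30, SE 0.13, edgeR adjusted p 0.403), and 3 processed pseudogenes at least 95% identical to Uqcrb, with 7.67 CPM in sum, may share its reads. At the other end of the complex, Uqcrq, another small subunit (ENSMUSG00000044894, chr11:53427922-53430831, minus strand), was at 166, 187 and 114 CPM in Celf1 AKO, against 230.2, 157 and 144 CPM in Flox control. The highest Celf1 AKO library was above 2 controls and the lowest was the lowest of all 6, and its SE was the largest of the complex (log2 fold change -0.18, SE 0.24, edgeR adjusted p 0.773); without both libraries the value was 0.23.

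The other 5 members of complex III had log2 fold changes between -0.22 and -0.33. The core proteins Uqcrc1 and Uqcrc2, relatives of mitochondrial processing peptidase, averaged 295 ± 21.5 CPM in Celf1 AKO, against 355 ± 54.7 CPM in Flox control for the first, and 318 ± 23.1 CPM in Celf1 AKO, against 399 ± 68.8 CPM in Flox control for the second (SD, n = 3 each). Uqcrh, the acidic hinge protein that helps cytochrome c dock, averaged 185 ± 10.01 CPM in Celf1 AKO, against 229 ± 39.1 CPM in Flox control. The small membrane subunits Uqcr10 and Uqcr11 averaged 112 ± 16.5 CPM in Celf1 AKO, against 131 ± 30.2 CPM in Flox control for Uqcr10, and 90.98 ± 9.16 CPM in Celf1 AKO, against 109 ± 22.2 CPM in Flox control for Uqcr11. Uqcrc2 and Uqcrh did not overlap between the groups, whereas Uqcrc1, Uqcr10 and Uqcr11 did, and the fold changes of Uqcr10 (0.09) and Uqcr11 (0.0041) were positive without both libraries. A processed pseudogene 98.83% identical to Uqcr11 over 171 bases, Gm16418, held 12.08 CPM and may share its reads.

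Cytochrome c had the largest difference of the members, and its values by library ran in another order from those of most members. Atp5h had the same order, and in Atp5g1 too Celf1 AKO replicate 3 was the highest of its group. Cycs, the somatic cytochrome c, which shuttles electrons from complex III to complex IV and triggers apoptosis when released (ENSMUSG00000063694, chr6:50562563-50566538, minus strand; promoter shown among the sequences), was at 301, 289 and 407 CPM in Celf1 AKO, against 585, 459 and 529 CPM in Flox control. The groups did not overlap, and within Celf1 AKO replicate 3 was the highest library, not the lowest. Its log2 fold change of -0.66 (SE 0.17) was the largest of the 38 and corresponds to 63.4% of the control mean, with an edgeR adjusted p of 0.258 that did not pass. The log2 fold change was -0.57 without Flox control replicate 1 (edgeR adjusted p 0.312), -0.83 once Celf1 AKO replicate 3 was left out (edgeR adjusted p 0.0395), and -0.74 without both (edgeR adjusted p 0.0356).

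Cycs was thus the 1 member called in those last fits, where 1.76% of genes were called lower without Celf1 AKO replicate 3 and 3.73% without both. It was also the 1 member called by DESeq2 on all 6 libraries (adjusted p 0.0337), which called 0.926% of genes lower. Over the fits that left out 1 library, its edgeR adjusted p ran from 0.0395 to 0.792. Its value is uncertain, since its reads may be shared with near-identical copies. Gm10053, annotated as protein-coding on chromosome 19 and 99.9% identical over 946 bases, was at 39.9, 35.7 and 56.1 CPM in Celf1 AKO, against 82.9, 61.7 and 72.0 CPM in Flox control. The copy had the same order of libraries as Cycs, and how the counting split reads between them is not given in the sources used here.

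Hccs, the enzyme that attaches heme to cytochrome c and to Cyc1, was at 32.1, 27.5 and 41.3 CPM in Celf1 AKO, against 59.6, 49.1 and 58.03 CPM in Flox control. It was lower in every Celf1 AKO library, with the same order of the Celf1 AKO libraries as Cycs. For Hccs the log2 fold change was -0.73 (SE 0.17), with edgeR adjusted p 0.246; without both the values were -0.85 and 0.0336.

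**Figure D2:**
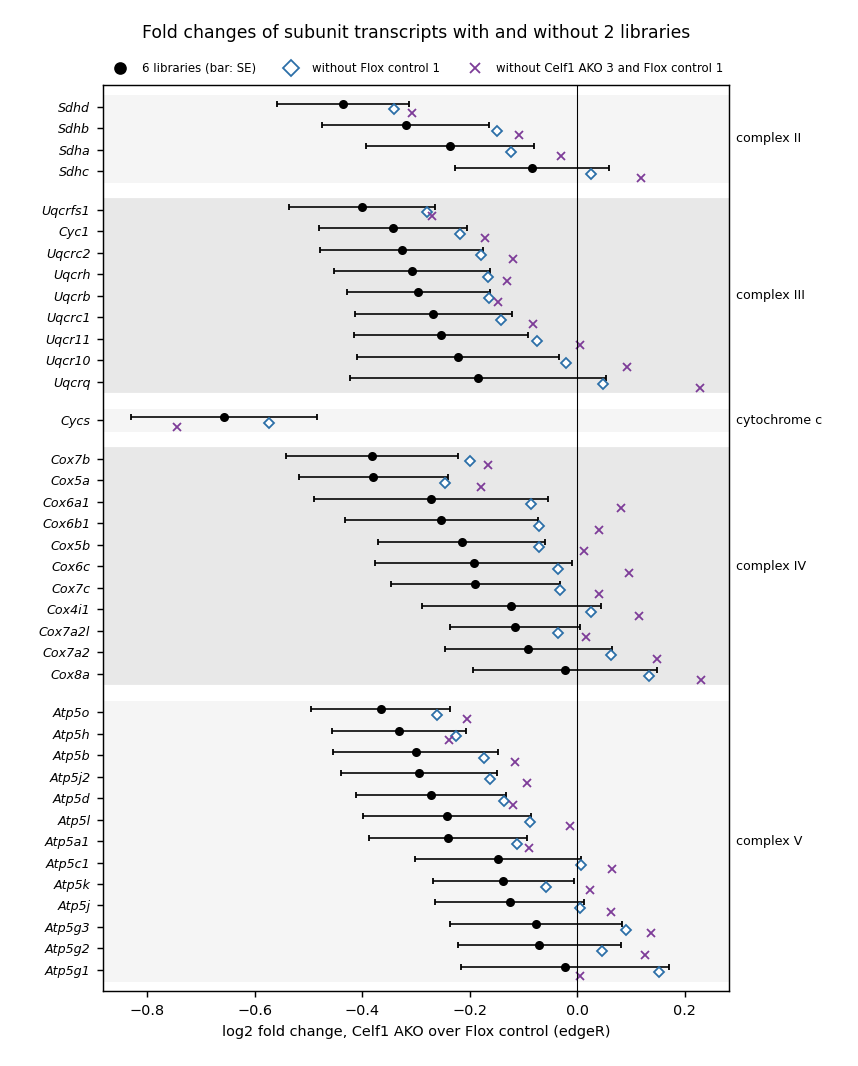
Log2 fold change of each member, Celf1 AKO over Flox control, from edgeR (x axis), one row per gene. Black points with bars of 1 SE are from all 6 libraries, open diamonds without Flox control replicate 1, and crosses without Celf1 AKO replicate 3 and Flox control replicate 1. The black points all lie below 0 while 19 of 38 crosses lie above it, and Cycs stays at -0.57 to -0.74.

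Complex IV, cytochrome c oxidase, had the smallest median difference of the complexes, and 2 of its 11 members did not overlap between the groups, against 9.51% of all genes lower without overlap. Cox5a, a subunit on the matrix side (ENSMUSG00000000088, chr9:57521274-57532426, plus strand), was at 81.7, 84.6 and 71.9 CPM in Celf1 AKO, against 122, 91.3 and 96.7 CPM in Flox control. Each Celf1 AKO library was below each control. For Cox5a the log2 fold change was -0.38 (SE 0.14), with edgeR adjusted p 0.337, and the log2 fold change was -0.18 without both. Cox7b, a small membrane subunit encoded on the X chromosome (ENSMUSG00000031231, chrX:106015700-106022450, plus strand), was at 155, 139 and 137 CPM in Celf1 AKO, against 232, 169 and 161 CPM in Flox control. It did not overlap either, by a margin of a few CPM. For Cox7b the log2 fold change was -0.38 (SE 0.16), with edgeR adjusted p 0.378, and the log2 fold change was -0.17 without both.

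Cox6b1, the subunit on the intermembrane face that links the monomers of the dimer (ENSMUSG00000036751, chr7:30616861-30626151, minus strand), was at 226, 231 and 177 CPM in Celf1 AKO, against 312, 226 and 218 CPM in Flox control. Celf1 AKO replicates 1 and 2 were level with the lower controls. For Cox6b1 the log2 fold change was -0.25 (SE 0.18), with edgeR adjusted p 0.583. Cox8a, the form of the smallest subunit made in most tissues (ENSMUSG00000035885, chr19:7215153-7217616, minus strand), was at 372, 421 and 321 CPM in Celf1 AKO, against 456, 347 and 328 CPM in Flox control. Its Celf1 AKO replicate 2 exceeded 2 of the controls and the log2 fold change of -0.02 (SE 0.17, edgeR adjusted p 0.967) was, with that of Atp5g1, the smallest of the 38. Its 95% interval was -0.42 to 0.37.

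The other 7 members of complex IV had log2 fold changes from -0.09 to -0.27, and all of them overlapped between the groups. Cox4i1, the largest nuclear subunit, averaged 513 ± 65.6 CPM in Celf1 AKO, against 559 ± 96.04 CPM in Flox control (SD, n = 3 each), and Cox5b, a zinc-binding subunit, 146 ± 15.6 CPM in Celf1 AKO, against 169 ± 29.4 CPM in Flox control. Cox6a1, the common form of a subunit with a separate muscle form, averaged 320.1 ± 72.1 CPM in Celf1 AKO, against 387 ± 84.2 CPM in Flox control, and Cox6c 227 ± 41.1 CPM in Celf1 AKO, against 259 ± 46.6 CPM in Flox control. Among the small subunits, Cox7a2 averaged 131 ± 14.6 CPM in Celf1 AKO, against 140.0 ± 24.9 CPM in Flox control, and Cox7c 215 ± 20.05 CPM in Celf1 AKO, against 245 ± 44.8 CPM in Flox control. Cox7c has 2 pseudogenes in the table with 30.8 CPM in sum, 1 of them identical to it over 192 bases. Cox7a2l, which is not a fixed subunit but ties complexes III and IV into supercomplexes, averaged 112 ± 7.69 CPM in Celf1 AKO, against 121 ± 13.3 CPM in Flox control. Without both libraries all 7 were positive, from 0.01 to 0.15, which brought complex IV to 2 of 11 negative and a median of 0.04.

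Complex IV also has forms of some subunits that heart, muscle and brown fat use in place of the common ones. Cox7a1, the form that replaces Cox7a2, was at 4.08, 1.72 and 2.61 CPM in Celf1 AKO, against 10.4, 4.92 and 6.29 CPM in Flox control, a log2 fold change of -1.36 (SE 0.40, edgeR adjusted p 0.289). Per length, Cox7a1 made 5.53%, 2.58% and 4.48% of the summed FPKM of Cox7a1 and Cox7a2 in Celf1 AKO, against 11.3%, 7.58% and 9.29% in Flox control. The groups did not overlap, and the exact two-sided permutation p was 0.1, the smallest that 3 against 3 allows (0.3 adjusted over the 6 shares computed). Cox8b, the form that replaces Cox8a, was at 27.5, 33.7 and 15.1 CPM in Celf1 AKO, against 53.4, 33.1 and 29.5 CPM in Flox control, and made 10.01%, 10.8% and 6.63% of the FPKM of Cox8a and Cox8b in Celf1 AKO, against 14.98%, 12.6% and 11.9% in Flox control. This share did not overlap either (exact p 0.1, adjusted 0.3), although the CPM of Cox8b did. For Cox8b the log2 fold change was -0.60 (SE 0.33), with edgeR adjusted p 0.475.

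Cox7a1 and Cox8b are also on the list of beige fat markers, and Ucp1, the defining one, was at 79.6, 4.86 and 34.01 CPM in Celf1 AKO, against 461, 567 and 495 CPM in Flox control, with no overlap. For Ucp1 the log2 fold change was -3.69 (SE 0.84), with edgeR adjusted p 0.246. Whether the shares moved with the number of beige cells was not tested. Cox4i2, a form induced by low oxygen, was at 1.27, 1.57 and 0.738 CPM in Celf1 AKO, against 0.635, 1.196 and 0.673 CPM in Flox control, or 0.172% to 0.283% of the FPKM of Cox4i1 and Cox4i2 in Celf1 AKO and 0.0989% to 0.253% in Flox control, and overlapped (exact two-sided permutation p 0.2, adjusted 0.4). Cox6b2, the form of testis, was at 0.928, 0.819 and 0.891 CPM in Celf1 AKO, against 1.06, 1.14 and 0.933 CPM in Flox control, and Cox6a2, the muscle form of Cox6a1, was not analysed here.

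**Figure D3:**
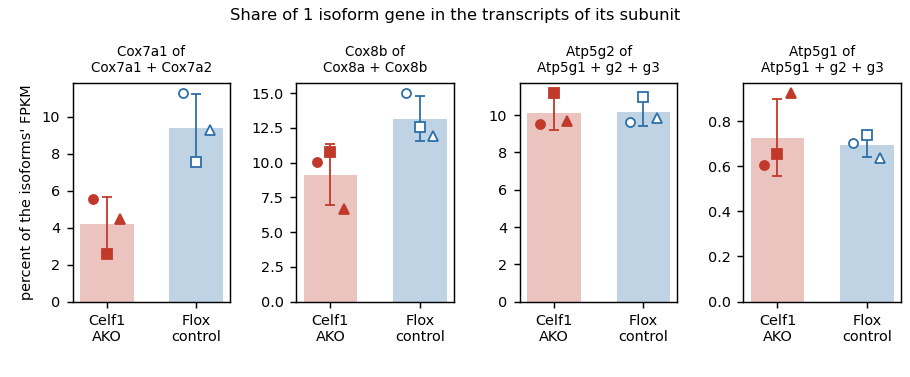
Share of 1 isoform gene in the FPKM summed over the genes for the same subunit (y axes, percent, each from 0). Bars are means, error bars SDs (n = 3), points the libraries with the replicate's symbol (circle 1, square 2, triangle 3), with Celf1 AKO left and Flox control right. Cox7a1 and Cox8b do not overlap between the groups, and Atp5g2 and Atp5g1 do.

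Complex V is built of a catalytic head, a central and a peripheral stalk and a membrane ring of c subunits. In the head, Atp5b, the beta subunit where ATP is made (ENSMUSG00000025393, chr10:128083273-128090391, plus strand), was at 2126, 2025 and 1838 CPM in Celf1 AKO, against 2883, 2287 and 2209 CPM in Flox control, and Atp5a1, the alpha subunit beside it (ENSMUSG00000025428, chr18:77773729-77782869, plus strand), at 1353, 1405 and 1318 CPM in Celf1 AKO, against 1881, 1443 and 1491 CPM in Flox control. Both were without overlap, by less than the distance from the lowest to the highest control (log2 fold changes -0.30, SE 0.15, and -0.24, SE 0.15, with edgeR adjusted p 0.453 and 0.522). The central stalk subunits Atp5c1 (gamma) and Atp5d (delta) overlapped and averaged 361 ± 25.98 CPM in Celf1 AKO, against 400.3 ± 71.03 CPM in Flox control for the gamma subunit, and 173 ± 8.66 CPM in Celf1 AKO, against 209 ± 33.6 CPM in Flox control for the delta subunit (SD, n = 3 each).

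In the stalk, Atp5o, the protein that clamps the peripheral stalk to the head and confers oligomycin sensitivity (ENSMUSG00000022956, chr16:91925214-91931687, minus strand), was at 160.2, 161 and 143 CPM in Celf1 AKO, against 228, 189 and 181 CPM in Flox control. All Celf1 AKO values were below all controls. For Atp5o the log2 fold change was -0.37 (SE 0.13), with edgeR adjusted p 0.325, and the log2 fold change was -0.20 without both. Atp5h, subunit d of the peripheral stalk (ENSMUSG00000034566, chr11:115415689-115419962, minus strand), was at 182, 179.7 and 186 CPM in Celf1 AKO, against 264, 211 and 215 CPM in Flox control. The Celf1 AKO libraries hardly differed from each other, and replicate 3 was their highest. For Atp5h the log2 fold change was -0.33 (SE 0.12), with edgeR adjusted p 0.341, and the log2 fold change was -0.24 without both. A processed pseudogene on chromosome 15, Gm10250, 98.97% identical to Atp5h over 485 bases, held 20.5 CPM. Atp5j, factor 6 of the same stalk, overlapped and averaged 164 ± 11.6 CPM in Celf1 AKO, against 179 ± 27.4 CPM in Flox control.

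Of the membrane subunits that hold synthase dimers together, Atp5j2 (subunit f; ENSMUSG00000038690, chr5:145183698-145192062, minus strand) was at 146, 158 and 130.3 CPM in Celf1 AKO, against 209, 166 and 157 CPM in Flox control. Only the highest Celf1 AKO library passed the lowest control. For Atp5j2 the log2 fold change was -0.29 (SE 0.14), with edgeR adjusted p 0.435. Atp5k (subunit e) averaged 43.2 ± 4.41 CPM in Celf1 AKO, against 47.6 ± 5.61 CPM in Flox control, and Atp5l (subunit g) 181 ± 19.1 CPM in Celf1 AKO, against 214 ± 38.2 CPM in Flox control, with overlap in both. Atp5l has 2 pseudogene copies in the table with 30.5 CPM in sum, 1 of them identical over 309 bases, so part of its reads may be counted there.

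The c ring is made from 3 genes, Atp5g1, Atp5g2 and Atp5g3, whose import sequences differ and whose mature protein is the same; none of them differed between the groups beyond its spread. Atp5g3 (ENSMUSG00000018770, chr2:73908447-73911326, minus strand) was at 586, 594 and 533 CPM in Celf1 AKO, against 735, 541 and 531 CPM in Flox control. For Atp5g3 the log2 fold change was -0.08 (SE 0.16), with edgeR adjusted p 0.874. Atp5g2 (ENSMUSG00000062683, chr15:102662864-102672352, minus strand) was at 54.4, 65.7 and 50.4 CPM in Celf1 AKO, against 69.1, 58.9 and 51.1 CPM in Flox control. For Atp5g2 the log2 fold change was -0.07 (SE 0.15), with edgeR adjusted p 0.878. Atp5g1 (ENSMUSG00000006057, chr11:96068852-96075670, minus strand) was at 21.6, 24.1 and 30.1 CPM in Celf1 AKO, against 31.6, 24.8 and 20.6 CPM in Flox control. For Atp5g1 the log2 fold change was -0.02 (SE 0.19), with edgeR adjusted p 0.970. In all 3 the groups overlapped, and Atp5g1 was the 1 of them in which Celf1 AKO replicate 3 was the highest Celf1 AKO library. Their 95% intervals were -0.45 to 0.29 for Atp5g3, -0.42 to 0.28 for Atp5g2 and -0.47 to 0.43 for Atp5g1.

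Per length, Atp5g3 supplied 89.9%, 88.2% and 89.4% of the c subunit FPKM in Celf1 AKO, against 89.7%, 88.3% and 89.5% in Flox control (exact two-sided permutation p 1). Atp5g2 supplied 10.1% ± 0.909 in Celf1 AKO, against 10.2% ± 0.727 in Flox control, and Atp5g1 0.727% ± 0.172 in Celf1 AKO, against 0.693% ± 0.0525 in Flox control (SD, n = 3 each; exact p 0.9 for both). The share of Atp5g1 is the least certain, since its FPKM rests on a length of 4718 bases that includes a 3′ UTR of 4252 bases, and a pseudogene 99.8% identical to it over 411 bases, Gm10039, held 9.41 CPM.

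On the FPKM scale, which allows levels of different genes to be compared, the members spanned a wide range. Atp5b had the highest level, 1035 ± 65.5 FPKM in Celf1 AKO, against 1279.7 ± 113 FPKM in Flox control (SD, n = 3 each), and Atp5g1 the lowest, 5.35 ± 1.13 FPKM in Celf1 AKO, against 5.42 ± 0.876 FPKM in Flox control. In complex II the levels per length ran from Sdha (307 ± 24.7 FPKM in Celf1 AKO, against 364 ± 27.4 FPKM in Flox control) to Sdhc (59.2 ± 4.67 FPKM in Celf1 AKO, against 63.1 ± 4.28 FPKM in Flox control), and in complex III from Uqcrb (252 ± 13.6 FPKM in Celf1 AKO, against 309.8 ± 27.8 FPKM in Flox control) to Uqcrq (101 ± 20.3 FPKM in Celf1 AKO, against 116 ± 22.9 FPKM in Flox control). In complex IV they ran, by the mean of all 6 libraries, from Cox4i1 (664 ± 53.6 FPKM in Celf1 AKO, against 727 ± 78.4 FPKM in Flox control) to Cox6c (73.95 ± 12.4 FPKM in Celf1 AKO, against 84.8 ± 9.85 FPKM in Flox control), while Cox8a, at 675 ± 59.4 FPKM in Celf1 AKO, against 689 ± 83.2 FPKM in Flox control, was above Cox4i1 in Celf1 AKO. Cycs, at 106 ± 25.4 FPKM in Celf1 AKO, against 168 ± 12.6 FPKM in Flox control, had a level per length between those of Sdhc and Sdhb. Subunits that enter a complex in equal number thus had unequal levels per length in both groups, with the caution that each FPKM rests on 1 length per gene. This length was 3173 bases for Sdhc, 1522 for Uqcrq and 3040 for Cox6c, the longest of complex IV. By CPM, Cox6c (227 in Celf1 AKO, 259 in Flox control) was above Cox5a (79.4 in Celf1 AKO, 103 in Flox control).

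**Figure D4:**
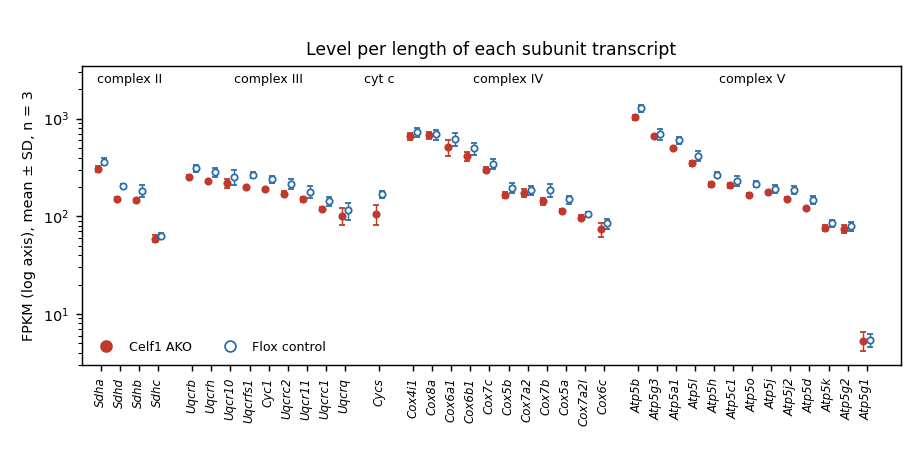
Level per length of each member (y axis, FPKM, log scale), by complex and from high to low within it; points are means and bars SDs of 3 libraries, with Celf1 AKO filled and left of Flox control, open. Atp5b is the highest at 1035 FPKM in Celf1 AKO and Atp5g1 the lowest at 5.35 FPKM.

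The subunits made in the mitochondrion were compared as far as counting allows. mt-Cytb, the only complex III subunit of mitochondrial DNA, was at 11365, 13334 and 11119 CPM in Celf1 AKO, against 16238, 11724 and 11190.0 CPM in Flox control, and mt-Co1, the catalytic subunit of complex IV, at 35745, 39179 and 30558 CPM in Celf1 AKO, against 40144, 32086 and 30212 CPM in Flox control. Both overlapped between the groups, with log2 fold changes of -0.13 (SE 0.19) and 0.04 (SE 0.18) and edgeR adjusted p-values of 0.805 and 0.943. Flox control replicate 1 was their highest library too, and without both libraries their log2 fold changes were 0.11 and 0.26. mt-Co2, mt-Co3 and mt-Atp6 have nuclear copies on chromosome 1 that are 100% identical, so their values are uncertain. mt-Co2, which takes the electrons from cytochrome c, was at 150.4, 245 and 256 CPM in Celf1 AKO, against 379.9, 216 and 244 CPM in Flox control. mt-Co3, the third core subunit of complex IV, was at 151, 231 and 214 CPM in Celf1 AKO, against 393, 311 and 148 CPM in Flox control, and mt-Atp6, the proton channel of complex V, at 243, 319 and 235 CPM in Celf1 AKO, against 251, 198 and 366 CPM in Flox control. These 3 had log2 fold changes of -0.37, -0.52 and -0.03, all overlapping. mt-Atp8, a small subunit of complex V, at 5.68, 17.5 and 13.4 CPM in Celf1 AKO, against 21.3, 14.95 and 10.6 CPM in Flox control, had -0.35. By edgeR, 0 of the 6 had an unadjusted p under 0.05.

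The list of 38 leaves out 6 further genes of these complexes, among them Atpif1, an inhibitor of the synthase rather than a subunit. Of the 6, 5 had negative log2 fold changes (median -0.22) and 3 did not overlap, against 9.51% of all genes. Atp5f1, subunit b of the peripheral stalk, was at 361, 363 and 394 CPM in Celf1 AKO, against 527, 443 and 463 CPM in Flox control, and Usmg5, a small dimer subunit of the synthase, at 62.95, 59.1 and 60.96 CPM in Celf1 AKO, against 86.2, 77.8 and 66.5 CPM in Flox control. Both were lower in every Celf1 AKO library, with edgeR adjusted p-values of 0.319 and 0.327.

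The factors that assemble the complexes had lower mean levels in Celf1 AKO as well, in another order by library for complexes III, IV and V. For complex II assembly the mean log2 level against the controls overlapped between the groups. It was -0.20, -0.02 and -0.34 in Celf1 AKO replicates 1, 2 and 3, and -0.03, 0.02 and 0.0047 in Flox control. For complex IV, 21 of the 22 assembly genes analysed had a negative log2 fold change (median -0.32), 13 did not overlap (9.51% of all genes tested were lower without overlap) and 0 passed the test. Their mean log2 level against the controls was -0.44, -0.32 and -0.30 in Celf1 AKO replicates 1, 2 and 3, and 0.08, -0.08 and 0.00074 in Flox control. Without both libraries 17 of 22 were negative (median -0.26) and 5 were called lower by edgeR, as were 3.73% of all genes in that fit: Cox10, Cox17, Coa7, Taco1 and Lrpprc. Lrpprc, which stabilizes mitochondrial mRNAs, was at 57.1, 60.2 and 71.6 CPM in Celf1 AKO, against 95.7, 86.5 and 105 CPM in Flox control. For Lrpprc the log2 fold change was -0.60 (SE 0.13), with edgeR adjusted p 0.227, and 0.0407 without both. Taco1, an activator of mt-Co1 translation, was at 8.37, 8.92 and 10.97 CPM in Celf1 AKO, against 14.8, 15.6 and 18.6 CPM in Flox control. For Taco1 the log2 fold change was -0.80 (SE 0.17), with edgeR adjusted p 0.227, and 0.0313 without both.

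For complex III, 7 of 7 assembly genes were negative (median -0.26), 4 did not overlap (against 9.51% of all genes), and the mean log2 level was -0.34, -0.37 and -0.31 in Celf1 AKO, against 0.04, -0.05 and 0.0096 in Flox control. Uqcc1, needed for cytochrome b, was at 39.1, 37.6 and 45.1 CPM in Celf1 AKO, against 56.4, 61.2 and 59.3 CPM in Flox control, a log2 fold change of -0.54 (SE 0.11; edgeR adjusted p 0.227, and 0.0296 without both, where Hccs was the other 1 called and 3.73% of all genes were called lower). For complex V, 3 of 3 were negative (median -0.34): Atpaf2, a chaperone of the alpha subunit, was at 69.9, 78.4 and 56.4 CPM in Celf1 AKO, against 95.2, 89.3 and 87.4 CPM in Flox control, and Tmem70, needed for the c ring, at 59.4, 71.8 and 63.7 CPM in Celf1 AKO, against 94.2, 73.6 and 79.7 CPM in Flox control. For complex II, 3 of 4 were negative (median -0.20), with Sdhaf2, which attaches the flavin to Sdha, at 34.9, 37.7 and 38.1 CPM in Celf1 AKO, against 44.8, 45.3 and 45.5 CPM in Flox control, and Sdhaf1, which helps mature Sdhb, at 1.73, 2.26 and 2.15 CPM in Celf1 AKO, against 2.93, 2.86 and 2.57 CPM in Flox control. These 4 genes, the 2 of smallest p in each of these lists, were lower in every Celf1 AKO library. Their edgeR adjusted p-values lay between 0.305 and 0.453. In all, 2 of 3 complex V and 2 of 4 complex II assembly genes were lower without overlap, against 9.51% of all genes.

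**Figure D5:**
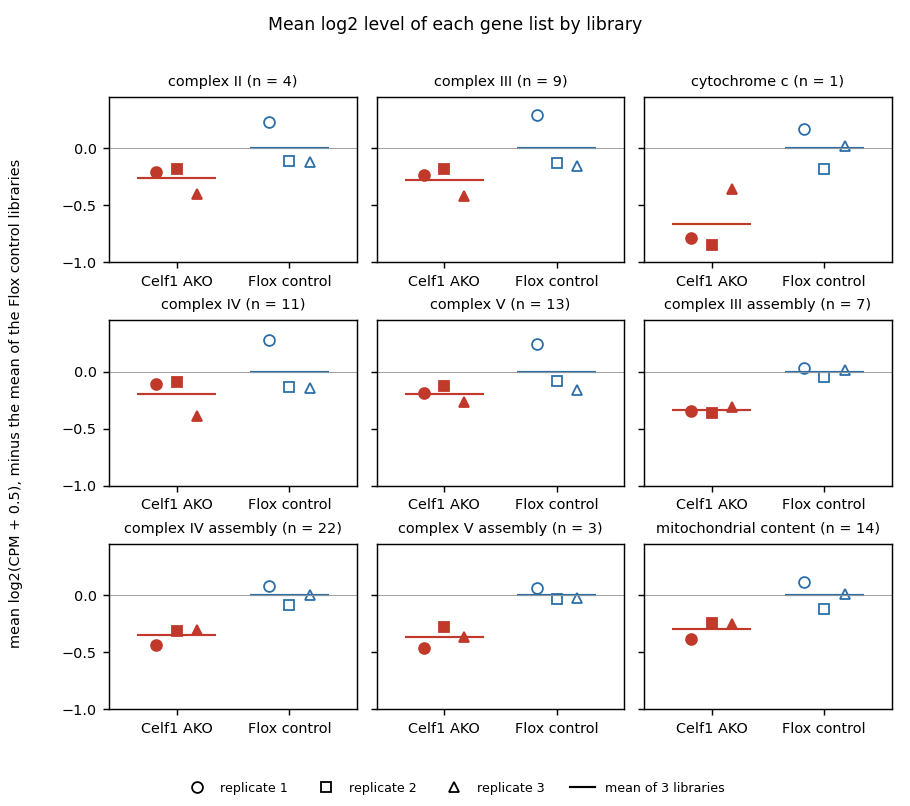
Mean log2(CPM + 0.5) of 9 gene lists in each library, minus the mean of the 3 Flox control libraries (y axis), with Celf1 AKO left (filled) and Flox control right (open); n is the number of genes and the line the mean of 3 libraries. In complexes II to V, Flox control replicate 1 (circle) stands above the other controls, at 0.26 beside -0.11 and -0.15 over all 38 members, while in complex III and IV assembly the groups are separate with closer replicates. Complex II assembly, in which the groups overlapped, is not drawn.

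Of 14 genes of mitochondrial content (import, channels, chaperones), 14 were negative (median -0.31), 10 did not overlap (9.51% of all genes were lower without overlap) and 0 passed. Timm44, of the import motor, was at 69.5, 72.2 and 80.5 CPM in Celf1 AKO, against 107, 91.95 and 97.6 CPM in Flox control, and Tomm22, an import receptor, at 54.2, 58.5 and 51.6 CPM in Celf1 AKO, against 66.6, 70.9 and 72.3 CPM in Flox control. Of 5 supercomplex and scaffold factors 5 were negative (median -0.16) and 2 did not overlap, against the same 9.51%. The prohibitins Phb2 and Phb, a ring scaffold of the inner membrane, had log2 fold changes of -0.39 and -0.20, with edgeR adjusted p-values of 0.286 and 0.563.

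Among 15 regulators of mitochondrial genes, 11 were negative (median -0.36), 4 did not overlap, all of them lower (9.51% of all genes), and 0 passed. Esrra is an estrogen-related receptor, whose motif was found in Atp5g3 and Sdhd. It was at 39.98, 37.98 and 53.1 CPM in Celf1 AKO, against 94.9, 79.95 and 93.00 CPM in Flox control. The Celf1 AKO values were all below the controls. For Esrra the log2 fold change was -1.03 (SE 0.15), with edgeR adjusted p 0.215, and 0.0182 without both. Polrmt, the mitochondrial RNA polymerase, was at 18.96, 20.6 and 25.6 CPM in Celf1 AKO, against 32.9, 32.1 and 30.6 CPM in Flox control. For Polrmt the log2 fold change was -0.55 (SE 0.14), with edgeR adjusted p 0.252, and 0.0373 without both. In both genes, as in Cycs, Celf1 AKO replicate 3 was the highest of its group. Nrf1, whose motif lies in the first listed promoter of 9 members, showed a log2 fold change of 0.05 (SE 0.13) and was named after its values were seen.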

How the data were processed

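Libraries of mRNA from 6 tissue samples were compared as 3 Celf1 AKO against 3 Flox control. The authors deposited a table of counts per gene, whole numbers for 16627 Ensembl IDs, and FPKM values, which are per length and per library. Per the submitters' processing notes, HISAT2, RSEM 1.3.1 and the builds GRCm38 and mm10 were used, with their roles, the annotation and the strand setting not given in the sources used here. IDs were named from GENCODE M21 (16522 matched, 105 did not). No gene had a total count under 53, so rarer genes are not analysed here. No pair of libraries agreed within sampling noise.

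The main test was edgeR 4.0.16 (R 4.3.3; filterByExpr, which removed 261 genes, TMM, robust quasi-likelihood fit, Benjamini-Hochberg adjustment over all 16366 genes, threshold 0.05). It was checked on simulated counts. Intervals of 95% use the test's own degrees of freedom. FPKM was used for levels between genes and for shares, CPM for everything else. Copies were found with BLAST+ 2.17.0 (at least 95% identity over 100 bases), and tables were made with Python 3.11.15 and pandas 2.3.3. DESeq2 1.42.0, limma 3.58.1 and other alternatives, 18 in all, are in the closing section.

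The members and the gene lists were chosen with earlier results of these data known. Of 190 listed genes, 178 were in the table. Named in full were the 3 members of smallest p and the member of largest p in each complex, both ends of the fold changes, and the c subunit genes. Atp5a1 and Atp5b, outside this rule, were added after their values were seen. Outside the members these were Celf1, Ucp1, the tissue isoforms, the mitochondrially encoded subunits and the 2 genes of smallest p in each other list, 1 of which is not reported here. The cAMP response element was chosen after its sequence was seen, and the setting without both Celf1 AKO replicate 3 and Flox control replicate 1 after seeing the data.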

Additional observations from a re-analysis of the deposited data

How the results depend on the processing

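All 38 members kept their direction under the normalizations, filters and tools run on 6 libraries, and not under the choice of libraries. Settings that left out 1 library or, chosen after seeing the data, Celf1 AKO replicate 3 and Flox control replicate 1 together gave 0 to 1126 genes called over all tested genes and 0 to 1 members called, with 527 genes and Cycs called once Celf1 AKO replicate 3 was left out, against 0 genes with Flox control replicate 1 left out. The median log2 fold change ran from -0.35 to -0.069 for complex II, -0.36 to -0.12 for complex III, -0.28 to 0.041 for complex IV and -0.30 to -0.013 for complex V. Log2 fold changes that took both signs over these settings ran from -0.15 to 0.12 (Sdhc), -0.34 to 0.23 (Uqcrq), -0.35 to 0.092 (Uqcr10), -0.34 to 0.0041 (Uqcr11), -0.22 to 0.12 (Cox4i1), -0.32 to 0.013 (Cox5b), -0.43 to 0.081 (Cox6a1), -0.35 to 0.041 (Cox6b1), -0.28 to 0.096 (Cox6c), -0.17 to 0.15 (Cox7a2), -0.20 to 0.017 (Cox7a2l), -0.28 to 0.041 (Cox7c). Further such ranges were -0.12 to 0.23 (Cox8a), -0.22 to 0.065 (Atp5c1), -0.20 to 0.063 (Atp5j), -0.23 to 0.023 (Atp5k), -0.17 to 0.15 (Atp5g1), -0.19 to 0.13 (Atp5g2), -0.16 to 0.14 (Atp5g3), -0.23 to 0.11 (mt-Cytb), -0.044 to 0.26 (mt-Co1), -0.22 to 0.24 (mt-Atp6), -0.71 to 0.024 (mt-Atp8). Differences in c subunit shares ran from -0.065 to 0.095 (Atp5g1), -0.57 to 0.37 (Atp5g2) and -0.43 to 0.49 (Atp5g3) percentage points, and that of Atp5g3 was -0.12 from CPM. The cause was not tested.

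With all 6 libraries, DESeq2 called 496 genes and 1 member, Cycs. By contrast 0 genes were called with library size only, limma-voom, log2(FPKM + 0.1) or log2(FPKM + 1), and 1 was with log2(FPKM + 1) and no filter. With the replicate block edgeR called 12 genes and 0 members. Correlations of the deviations of same-numbered libraries (0.08, -0.05 and 0.21) lay within those of differently numbered ones (-0.27 to 0.26). The numbers are therefore not taken as pairs. The log2 fold change of mt-Atp6 turned positive, to 0.0012 with limma-voom and 0.00062 with the replicate block. Each complex kept a negative median under all normalizations, filters and tools run on 6 libraries. Depth limits only the scarcest genes named, such as Cox6b2 and Cox4i2, at about 1 CPM.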
